A study of Mus musculus with 6 samples.

Results

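Genes of the cell cycle and of DNA replication were followed through RNA-seq libraries of natural killer (NK) cells, lymphocytes of innate immunity that attack infected cells and tumours. The gene set held 45 symbols, chosen by name for their roles in replication and mitosis, with earlier results of these data known. All 45 were found among the 11717 genes of the deposited table. They comprised 19 S phase genes (origin licensing, S phase entry, DNA and nucleotide synthesis), 24 mitotic genes (cyclins and kinases, checkpoint and kinetochore, spindle and cytokinesis, with the proliferation marker Mki67) and 2 further proliferation genes. The cells were purified from spleens of C57BL/6 mice that carried an IL-15 transgene, labelled IL-15Tg. The libraries numbered 3 from IL-15Tg-Xbp1s cKO mice, a conditional knockout aimed at the spliced form of the transcription factor XBP1, and 3 from IL-15Tg WT mice. All 6 libraries therefore came from animals with the transgene. The sources used here do not give the promoter of the transgene, the line that drove the deletion, the age of the mice or whether animals were pooled.

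IL-15 is the cytokine that keeps NK cells alive and drives them to divide. A dividing cell first loads the MCM helicase onto replication origins with the help of CDC6 and CDT1. E2F factors and cyclin E then open S phase, in which the genes of the replication fork and of nucleotide supply are transcribed. Later in the cycle, cyclin A and cyclin B with CDK1, the Aurora and Polo-like kinases and the spindle motors are made for mitosis. The cyclins are then destroyed through the anaphase-promoting complex (APC/C). Transcripts of these genes are scarce in resting lymphocytes, so bulk levels of these RNAs are commonly read as a measure of how many cells are in cycle. More cells in cycle and more of these RNAs per cycling cell cannot be told apart in bulk samples, and neither can cycling NK cells and cycling cells of another type.

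Values are CPM, the reads of a gene scaled so that the genes in the table sum to 1000000 in each library. The libraries held 26907844 to 29366756 such reads in cKO and 26297292 to 28585834 in WT. Xbp1 lay at 33.4 to 39.7 CPM in cKO and at 42.9 to 63.5 CPM in WT, without overlap (exact permutation p = 0.1, the smallest that 3 against 3 libraries allow, limma adjusted p = 1.0). These whole-gene values do not separate the spliced form. Of 13 NK cell markers, 12 were listed, with a summed level of 11569 to 12461 CPM in cKO and 12217 to 13880 CPM in WT. All 45 members passed the filter of at least 1 CPM in at least 3 libraries, and the fewest reads for a member in a library were 124, for Gins2 in WT library 3 (exact Poisson 95% interval 103 to 148, counting error only).

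Promoters of members were examined for short motifs linked to cell cycle transcription, since members moved together across libraries as described further on. RefSeq promoter windows (GRCm38.p6, the same assembly as mm10) of 250 bases before to 50 bases after the start were matched for 37 of 45 members, and not for Mcm4, Gins2, Ccne2, Ccna2, Aurkb, Kif20a, Tpx2 and Stmn1. For each phase, the 150 bases before the start are printed for the matched member with the widest and for the one with the narrowest spread over the 6 libraries. The start is that of RefSeq, which differs from the GENCODE gene bounds given further on. The Cdc6 stretch lies wholly, and the Ccnb1 stretch partly, within those gene bounds. Capitals mark the motifs, which were searched on both strands: the cell cycle genes homology region (CHR), as TTTGAA in one form and as TTTAAA in another form, the CCAAT box by its letters, and the E2F core, as TTGGCGC in its common form and as TTCCCGC in another form and as TTCGCGC in the remaining form. Neighbouring motifs can overlap, as the E2F core and the CCAAT box do in Ccnb1 and as pairs of E2F cores do in Mcm6.
Cdc6, S phase, widest, chr11:98908001-98908150, plus strand: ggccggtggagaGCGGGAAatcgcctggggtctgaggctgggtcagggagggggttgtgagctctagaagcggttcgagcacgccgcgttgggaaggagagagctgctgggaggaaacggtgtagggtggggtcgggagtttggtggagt
Mcm6, S phase, narrowest, chr1:128359706-128359855, minus strand: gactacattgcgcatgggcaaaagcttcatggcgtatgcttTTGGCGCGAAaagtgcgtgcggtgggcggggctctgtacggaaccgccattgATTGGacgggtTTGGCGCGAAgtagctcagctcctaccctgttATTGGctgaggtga
Ccnb1, mitotic, widest, chr13:100786487-100786636, minus strand: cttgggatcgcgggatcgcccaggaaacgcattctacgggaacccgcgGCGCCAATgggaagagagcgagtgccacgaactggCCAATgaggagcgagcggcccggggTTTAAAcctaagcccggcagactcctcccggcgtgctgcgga
Kif23, mitotic, narrowest, chr9:61946800-61946949, minus strand: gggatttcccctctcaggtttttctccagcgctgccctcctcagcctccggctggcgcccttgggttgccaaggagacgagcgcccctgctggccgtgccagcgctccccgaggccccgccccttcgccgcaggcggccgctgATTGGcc

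In these stretches, Ccnb1 had a CHR beginning 42 bases before the start and 2 CCAAT boxes, the nearer of them 67 bases before it. Mcm6 had 4 E2F cores in 2 overlapping pairs together with 2 CCAAT boxes, Cdc6 had 1 E2F core 138 bases before the start, and Kif23 had 1 CCAAT box. Over the whole 300-base windows all 3 motifs occurred in both phases, at frequencies whose difference was not tested. A CHR was present in 5 of 16 matched S phase members (31.2%) and 17 of 20 matched mitotic members (85.0%), against 19.4% of the 8293 matched promoters of tested genes and 27.6% of all 32851 promoters in the table. The E2F core was present in 8 of 16 S phase members (50.0%) and 4 of 20 mitotic members (20.0%), against 15.6% of promoters of tested genes and 8.07% of all promoters. CCAAT boxes were present in 9 of 16 S phase members (56.2%) and 17 of 20 mitotic members (85.0%), against 39.3% and 37.4% in the same backgrounds. A match describes letters in a window and not binding.

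The members rose and fell together from library to library, and the pattern cut across genotype. In all 45 genes the highest values were those of cKO library 2 and WT library 1, in one order or the other. WT library 1 was highest in 41 members and cKO library 2 in the other 4 (Mcm3, E2f1, Tyms and Stmn1). Over all 11343 genes tested, this pair was the highest in 25.4%, the most frequent of the 15 possible pairs, and the next was cKO library 3 with WT library 3, in 20.5%. In the median member, the second highest library exceeded the third by 1.47 times (1.01 times in Kif23 to 2.07 times in the most separated member), against 1.04 times in the median gene tested. The remaining libraries lay close together, the third highest exceeding the lowest by 1.13 times in the median member. WT library 3 was the lowest in 20 members, cKO library 3 in 13, cKO library 1 in 7 and WT library 2 in 5. The share of all reads that fell on the 45 members was 0.210%, 0.308% and 0.206% in cKO libraries 1, 2 and 3, against 0.330%, 0.218% and 0.203% in WT libraries 1, 2 and 3.

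**Figure D1:**
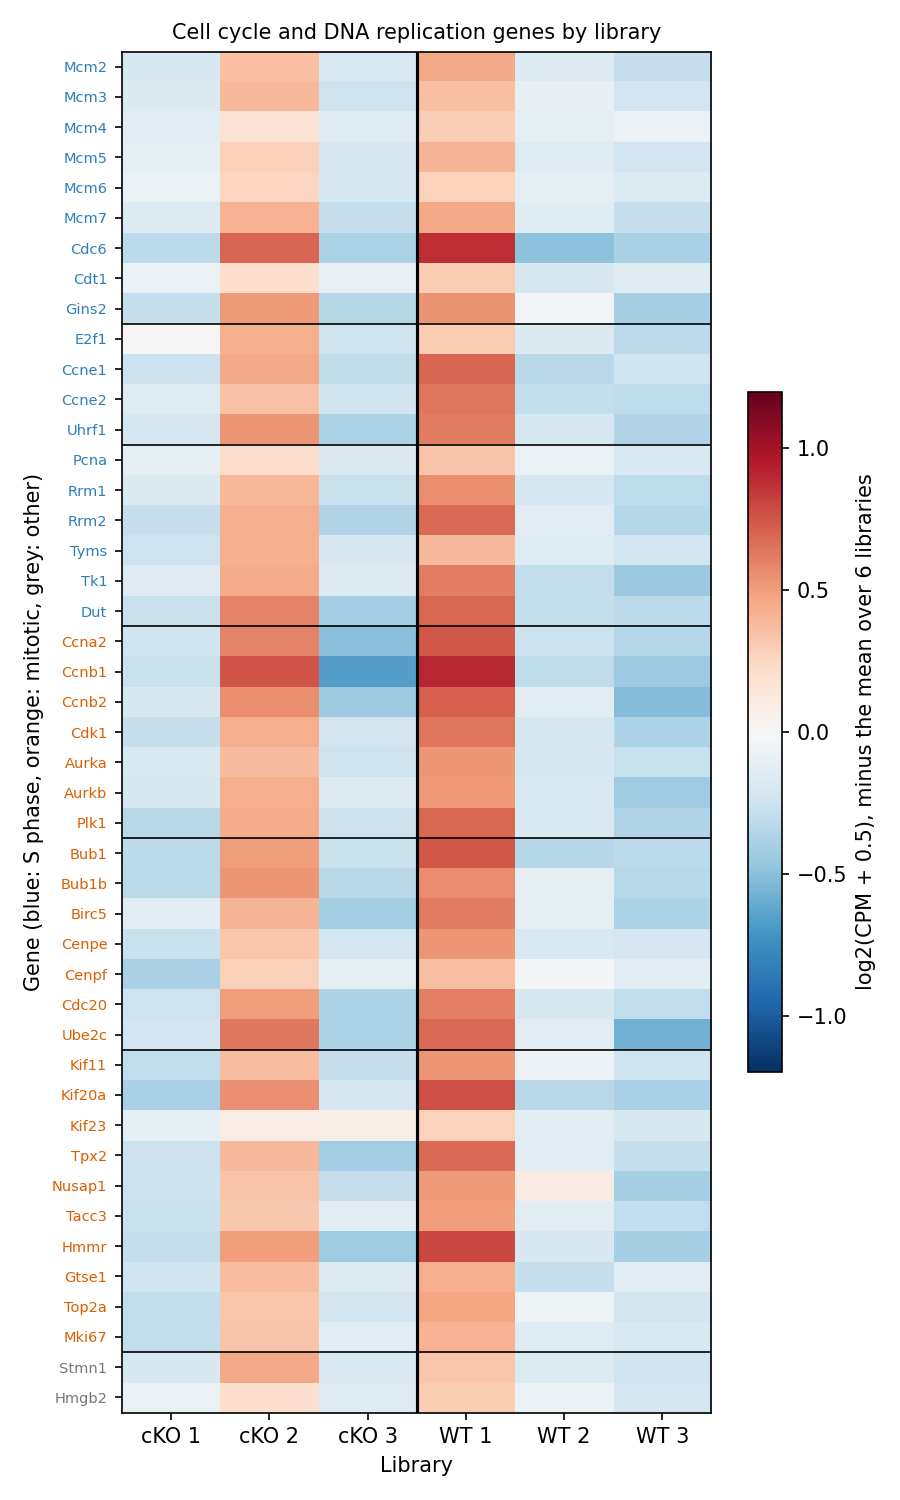
Level of each of the 45 genes (rows, ordered by role with lines between roles) in the 3 cKO and 3 WT libraries (columns), as log2(CPM + 0.5) minus the mean of the gene over the 6 libraries. The columns of cKO library 2 and WT library 1 are above the mean in every row, and WT library 1 is the highest in 41 of 45.

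Erythroid markers had the same pair of high libraries as the members, while the order of the other libraries differed. The list names genes of red cell precursors, which also divide in the mouse spleen, and 11 of its 12 genes were in the table. In each of the 11, the highest libraries were again cKO library 2 and WT library 1. Their summed level was 288, 632 and 237 CPM in cKO libraries 1, 2 and 3, against 715, 224 and 214 CPM in WT libraries 1, 2 and 3. Car1, an early erythroid carbonic anhydrase, was at 167, 353 and 134 CPM in cKO and at 353, 126 and 109 CPM in WT, and Klf1, the erythroid transcription factor, at 15.0, 39.5 and 12.8 CPM in cKO and at 40.9, 12.2 and 12.6 CPM in WT. The globin gene Hbb-bs, which marks later erythroid cells, was low throughout, at 3.47, 6.85 and 2.60 CPM in cKO and at 10.9, 1.61 and 1.64 CPM in WT. No listed erythroid marker was at 0 reads in any library, and their part in the levels of the cell cycle genes was not tested.

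No other marker list had that high pair in every gene. Among 9 neutrophil and granulocyte progenitor markers, the 4 protease and peroxidase genes of immature granulocytes did: Mpo, the largest of them, was at 11.6, 25.5 and 8.29 CPM in cKO and at 20.1, 6.89 and 11.1 CPM in WT. These 4 were 44.4% of the list, beside 25.4% of all genes tested with that pair. The mean over the list of log2(CPM + 0.5), centred on each gene, was 0.12, 0.49 and -0.24 in cKO libraries 1, 2 and 3. In WT libraries 1, 2 and 3 it was 0.19, -0.31 and -0.24, so the pair was the highest by this measure. The summed list spanned 115 to 154 CPM in cKO and 103 to 130 CPM in WT, with its highest sum in cKO library 1. None of the 10 B cell, 11 T cell, 4 listed macrophage or 12 listed NK cell markers had cKO library 2 and WT library 1 as their highest pair. These libraries were the lowest pair in 4 NK cell markers (33.3%), 1 T cell marker and 0 B cell or macrophage markers, beside 19.8% of all genes tested. B cell markers summed to 548 to 1348 CPM in cKO and 277 to 891 CPM in WT, T cell markers to 218 to 290.5 CPM in cKO and 232 to 307 CPM in WT, and macrophage markers to 42.6 to 107 CPM in cKO and 24.2 to 48.3 CPM in WT. Of 5 germinal centre B cell markers 2 were listed and tested, and of 6 plasma cell markers 4 were listed and 3 tested. None of those tested had cKO library 2 and WT library 1 as the highest pair. The 2 listed germinal centre B cell markers summed to 66.35 to 91.2 CPM in cKO and 66.25 to 79.6 CPM in WT. The 4 listed plasma cell markers summed to 167 to 187 CPM in cKO and 174 to 184 CPM in WT. Bulk values do not tell which cells these transcripts came from. By total of reads, cKO library 2 and WT library 1 ranked the third and the fourth. The source of their shared high values was not tested.

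**Figure D2:**
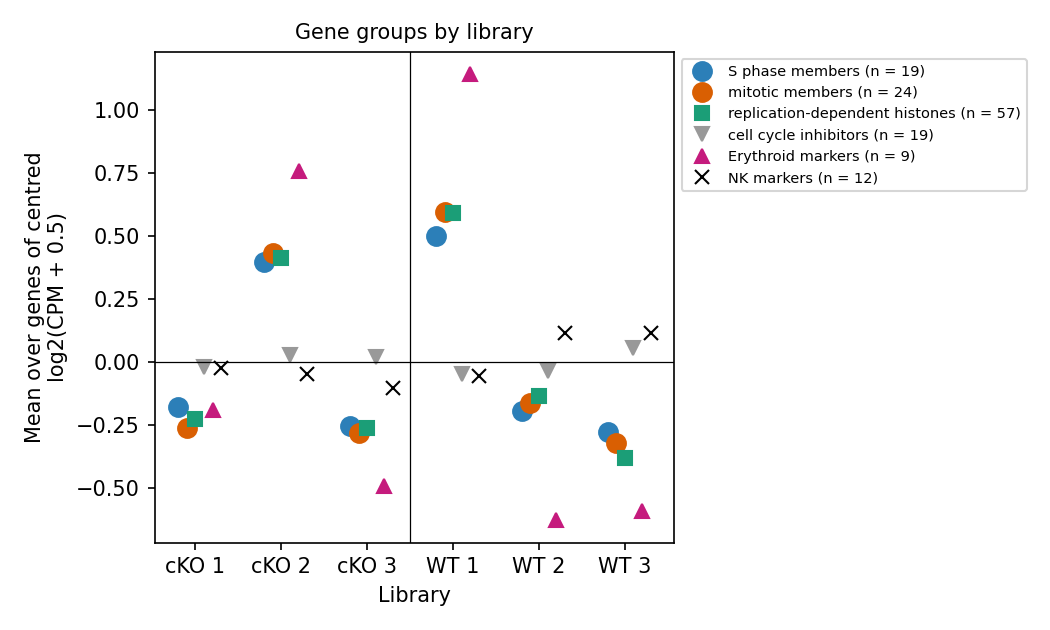
Mean over the genes of a group of log2(CPM + 0.5), centred on the mean of each gene over the 6 libraries, by library, with cKO on the left and WT on the right. S phase genes, mitotic genes and replication-dependent histones lie between 0.40 and 0.59 in cKO library 2 and WT library 1 and below 0 elsewhere, erythroid markers are also highest in that pair, with a wider range, and inhibitors and NK cell markers stay near 0.

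S phase and mitotic members moved almost in parallel. The mean centred log2 level of the S phase members was -0.18, 0.40 and -0.25 in cKO libraries 1, 2 and 3, against 0.50, -0.19 and -0.28 in WT libraries 1, 2 and 3. For the mitotic members it was -0.26, 0.43 and -0.28 in cKO, against 0.59, -0.16 and -0.32 in WT. The S phase minus mitotic difference was 0.083, -0.035 and 0.030 in cKO, against -0.093, -0.029 and 0.044 in WT, so the groups overlapped. The median spread was wider in mitotic members, though the roles within the phases overlapped, as given further on. The highest library exceeded the lowest by 1.72 times in the median S phase member and 1.99 times in the median mitotic member, against 1.23 times in the median gene tested. The within-group SD of log2(CPM + 0.5) had a median of 0.38 in S phase members and 0.47 in mitotic members, against 0.12 over all genes tested. By this SD the least variable member stood at percentile 74.4 of all genes tested and the median member at percentile 93.3.

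By role, the median fold between the highest and the lowest library was 1.56 for licensing, 2.01 for S phase entry, 1.95 for DNA and nucleotide synthesis, 2.12 for mitotic cyclins and kinases, 2.01 for the checkpoint, kinetochore and APC/C group and 1.77 for the spindle and cytokinesis group. The widest single values were those of the cyclin B1 gene Ccnb1 (3.05) and the licensing factor gene Cdc6 (2.66). At the narrow end lay Mcm4 (1.36), Mcm6 (1.39) and Kif23 (1.39).

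**Figure D3:**
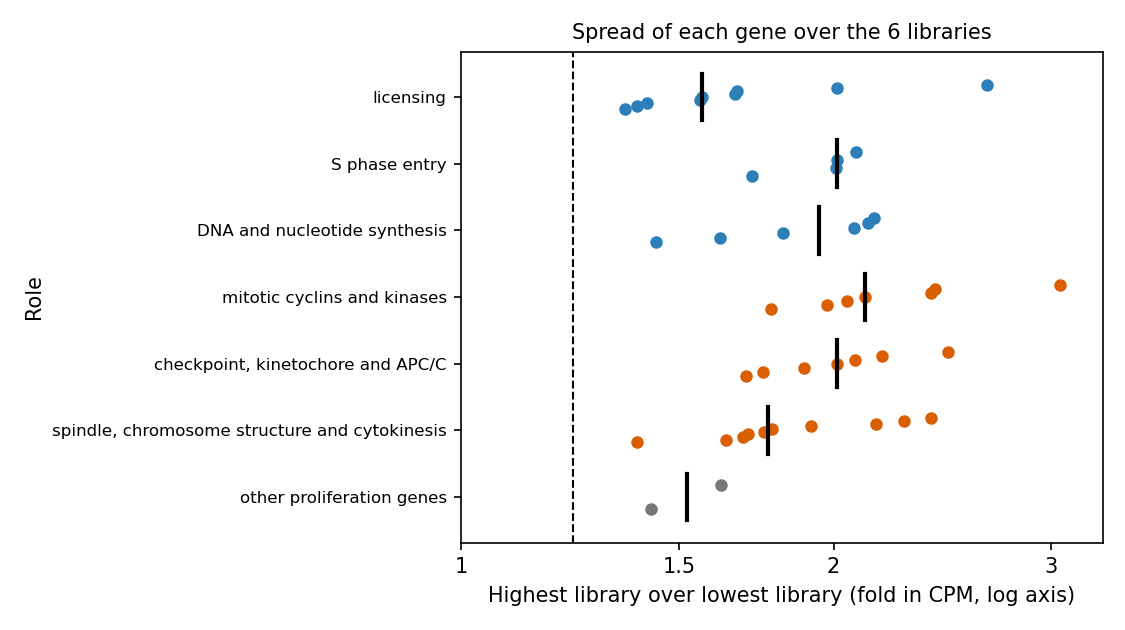
Fold between the highest and the lowest of the 6 libraries for each gene (points, CPM, log axis) by role, with the median of the role (bar) and the median of all tested genes (dashed line, 1.23). Every member lies to the right of the dashed line, from 1.36 for Mcm4 to 3.05 for Ccnb1.

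The comparison that the design implies, cKO against WT, found no member that differed. In limma 0 of 45 passed an adjusted p of 0.05 over all genes (0.0% of the 11343 genes tested passed), and 0 of 45 had an unadjusted p under 0.05, where 1.17% of all genes did (0.846% higher in cKO and 0.326% lower). The smallest unadjusted p among the members was 0.501, for Cenpf. The edgeR quasi-likelihood test on recovered reads also gave 0 of 45 adjusted and 0 of 45 unadjusted (0.0% and 1.28% of all genes), and DESeq2 gave 0 and 0 (0.0529% and 1.37%). The groups overlapped in every member, where 4.32% of all genes tested did not overlap (2.55% higher in cKO and 1.77% lower). Point estimates were below 0 in 38 members and above 0 in 7, with a median log2 fold change of -0.042 (log2(CPM + 0.5) scale, range -0.19 to 0.12), against 0.0087 over all genes tested. The median was -0.021 for S phase members (16 below 0 and 3 above) and -0.084 for mitotic members (21 below 0 and 3 above). The 95% interval included 0 in all 45, running for example from -0.39 to 0.26 for Mcm4 and from -1.23 to 1.01 for Ccnb1.

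The sign of the median was set by single libraries. Without WT library 1 all 45 estimates were above 0, with a median of 0.20, and without cKO library 2 all 45 were below 0, with a median of -0.28. It also turned to 0.050 without cKO library 1 and to 0.079 without cKO library 3, and moved to -0.15 without WT library 2 and -0.22 without WT library 3. With both cKO library 2 and WT library 1 left out, a choice made after the data were seen, 22 estimates were above 0 and 23 below, with a median of -0.0011 and 0 of 45 at an unadjusted p under 0.05 (4.12% of all genes).

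**Figure D4:**
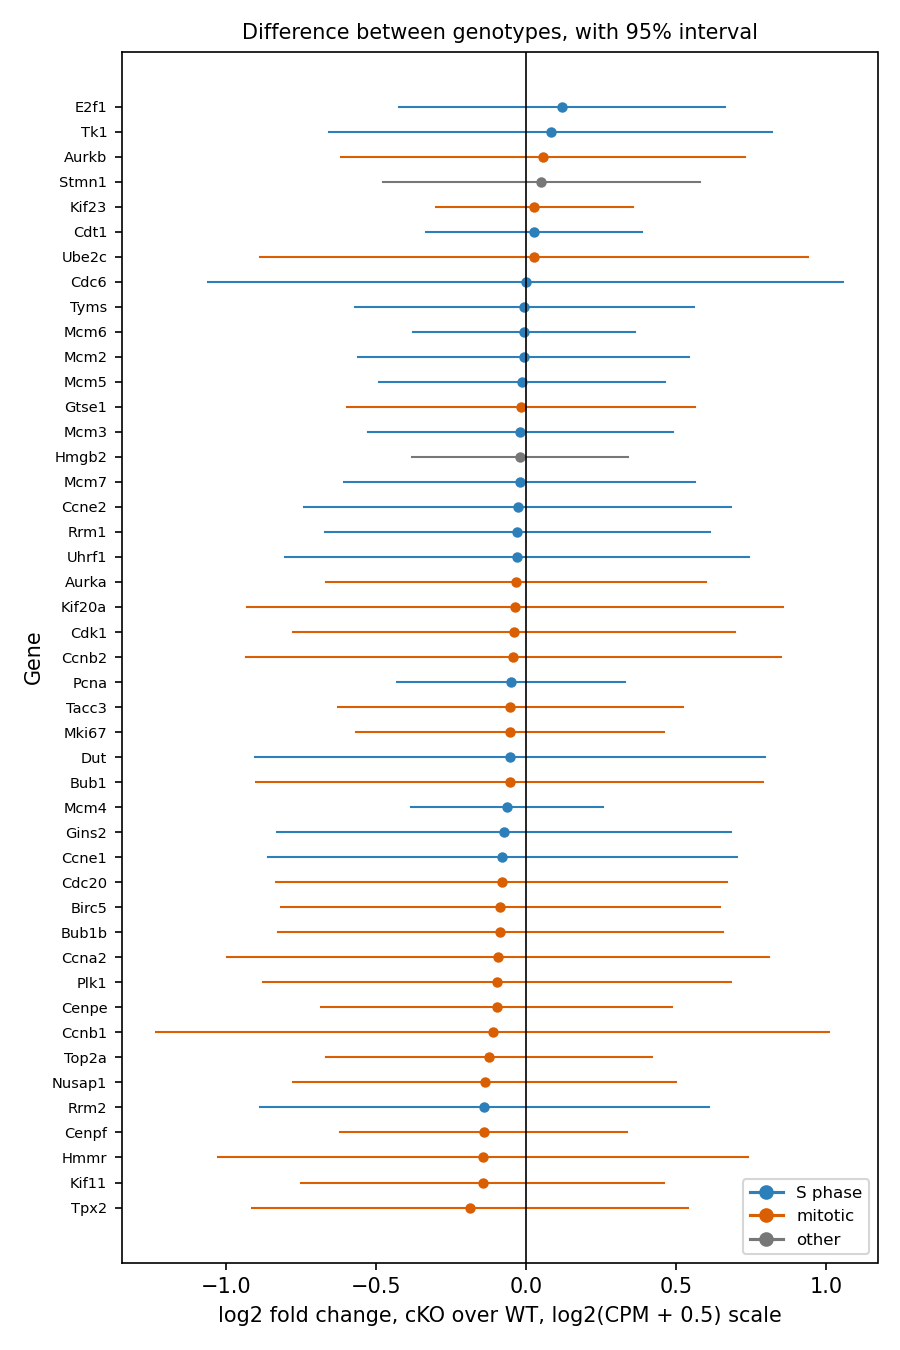
Log2 fold change of cKO over WT for each of the 45 genes (log2(CPM + 0.5) scale, points) with its 95% interval from limma (lines), ordered by size and coloured by phase. Every interval crosses 0, and the points run from -0.19 (Tpx2) to 0.12 (E2f1).

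Licensing genes had the highest median level of the 6 larger roles, 24.6 CPM per kilobase of exon. Per kilobase of exon, averaged over the 6 libraries, Mcm6 reached 42.2 and Mcm4 33.1 CPM, both subunits of the replicative helicase, while Gins2, a subunit of the GINS complex that activates it, was the lowest member at 1.62 CPM. Mcm6 (ENSMUSG00000026355.11, minus strand of chromosome 1, 128331590 to 128359664, mm10) was at 185, 233 and 171 CPM in cKO libraries 1, 2 and 3, against 237, 181 and 174 CPM in WT libraries 1, 2 and 3. Mcm4 was at 108, 133 and 106.5 CPM in cKO, against 144, 108.5 and 112 CPM in WT. In both, cKO library 2 and WT library 1 were high and the groups overlapped. Cdt1, the loading factor that is degraded once S phase begins, was at 52.5, 64.0 and 52.2 CPM in cKO, against 68.5, 48.5 and 50.0 CPM in WT. Gins2 was at 5.14, 9.31 and 4.91 CPM in cKO, against 9.50, 6.19 and 4.72 CPM in WT. The other subunits Mcm2, Mcm3, Mcm5 and Mcm7 lay between 76.4 and 155 CPM in cKO and between 77.2 and 159.6 CPM in WT. Cdc6 (plus strand of chromosome 11, 98907801 to 98923940), the S phase member of widest spread, was at 18.8, 38.4 and 17.95 CPM in cKO, against 44.0, 16.5 and 17.8 CPM in WT. Its log2 fold change was -0.0022, with a 95% interval of -1.06 to 1.06.

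Regulators of S phase entry had a median level of 4.57 CPM per kilobase of exon, below the 8.25 CPM of all genes tested. E2f1, the transcription factor that switches on replication genes, was at 10.3, 14.0 and 8.62 CPM in cKO, against 12.9, 9.10 and 8.18 CPM in WT. It had the largest positive estimate of any member, a log2 fold change of 0.12 (95% interval -0.42 to 0.66, limma unadjusted p = 0.615, adjusted p = 1.0), which was smaller than the spread between libraries. Ccne1, which encodes cyclin E1, was at 12.2, 20.4 and 11.8 CPM in cKO, against 24.2, 11.6 and 12.4 CPM in WT. Uhrf1, which guides maintenance methylation to newly copied DNA, was at 50.0, 83.3 and 44.2 CPM in cKO, against 88.8, 49.6 and 44.6 CPM in WT. Cyclin E2 (Ccne2) was lower, at 5.69 to 8.78 CPM in cKO and 5.40 to 10.9 CPM in WT. Each of these genes had 1 high library in each genotype, and the groups overlapped.

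Among genes of DNA and nucleotide synthesis, Pcna, the sliding clamp of DNA polymerases, was the most abundant per kilobase of exon (48.6 CPM). Pcna (minus strand of chromosome 2, 132249162 to 132253314) was at 107, 134 and 103 CPM in cKO, against 146, 109 and 102 CPM in WT. Rrm2, the regulated subunit of ribonucleotide reductase, was at 31.8, 51.9 and 29.8 CPM in cKO, against 62.0, 35.2 and 30.3 CPM in WT. Its larger partner Rrm1 lay at 93.9 to 149 CPM in cKO and 91.6 to 167 CPM in WT. Both subunits had the same high libraries, and Rrm2 had the lower estimate (log2 fold change -0.14) of the pair. Dut, which removes dUTP, was at 36.8, 67.2 and 33.2 CPM in cKO, against 71.6, 36.1 and 35.6 CPM in WT. Tk1, the thymidine salvage kinase, was at 15.9, 24.4 and 15.8 CPM in cKO, against 27.6, 14.4 and 12.9 CPM in WT. Thymidylate synthase (Tyms) spanned 16.9 to 27.4 CPM in cKO and 17.2 to 26.7 CPM in WT, so none of the 6 genes separated the genotypes.

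Mitotic cyclins and kinases varied most. Ccnb1 (minus strand of chromosome 13, 100778650 to 100786570), whose promoter is printed above, encodes cyclin B1, the partner of CDK1 at mitotic entry. It was at 12.7, 26.2 and 9.55 CPM in cKO, against 29.1, 12.3 and 11.3 CPM in WT. The value of cKO library 2 was 2.75 times that of cKO library 3, and WT library 1 was 2.59 times WT library 3, so spread within each genotype was wider than the difference between them (log2 fold change -0.11). Ccnb2 was at 12.8, 21.9 and 10.7 CPM in cKO, against 24.4, 13.4 and 10.1 CPM in WT. Ccna2, the cyclin of S phase and early mitosis, was at 28.6, 51.5 and 23.8 CPM in cKO, against 57.1, 28.2 and 26.6 CPM in WT. Plk1, a kinase of spindle assembly, was at 13.0, 22.8 and 13.8 CPM in cKO, against 27.1, 14.5 and 12.8 CPM in WT. In all 4 genes the same libraries were high. Cdk1, Aurka and Aurkb spanned 8.66 to 26.1 CPM in cKO and 8.52 to 30.3 CPM in WT.

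Checkpoint, kinetochore and APC/C genes gave the member of smallest p. Cenpf, a kinetochore protein, was at 22.4, 36.1 and 27.3 CPM in cKO, against 38.0, 29.2 and 26.8 CPM in WT, a log2 fold change of -0.14 (95% interval -0.62 to 0.34, exact permutation p = 0.6). Cenpe, the kinetochore motor that aligns chromosomes, was at 26.3, 40.2 and 27.4 CPM in cKO, against 46.2, 28.0 and 27.6 CPM in WT. Both overlapped between genotypes. Bub1b, a component of the mitotic checkpoint, was at 22.6, 41.1 and 22.4 CPM in cKO, against 42.4, 26.3 and 22.4 CPM in WT. Birc5, the survivin of the chromosomal passenger complex, was at 13.5, 19.8 and 11.1 CPM in cKO, against 23.1, 13.7 and 11.3 CPM in WT. Cdc20, the APC/C activator that the checkpoint holds back, was at 12.9, 22.0 and 11.8 CPM in cKO, against 23.7, 13.4 and 12.5 CPM in WT. Ube2c, the ubiquitin-conjugating enzyme of the APC/C, and Bub1 spanned 8.92 to 20.4 CPM in cKO and 8.56 to 21.2 CPM in WT. In each, cKO library 2 and WT library 1 stood above the rest.

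Spindle, chromosome structure and cytokinesis genes included the mitotic member of highest level per kilobase of exon, Mki67 (29.5 CPM). Mki67 (ENSMUSG00000031004.8, minus strand of chromosome 7, 135689784 to 135716361) encodes Ki-67, the standard marker of cells in cycle. It was at 237, 369.7 and 266 CPM in cKO, against 388, 262 and 257 CPM in WT, averaging 291 ± 69.8 CPM in cKO and 302 ± 74.3 CPM in WT (SD, n = 3 each). The difference, a log2 fold change of -0.054, was smaller than the spread within either genotype. Top2a, the topoisomerase that untangles sister chromatids, was at 129, 199 and 135 CPM in cKO, against 219.8, 151 and 136 CPM in WT. Kif11, the motor that separates spindle poles, was at 36.0, 57.5 and 36.3 CPM in cKO, against 64.3, 42.3 and 37.6 CPM in WT. Tpx2, which nucleates spindle microtubules and activates Aurora A, was at 22.1, 34.8 and 19.7 CPM in cKO, against 42.7, 24.2 and 21.8 CPM in WT. Tpx2 had the lowest estimate of any member, a log2 fold change of -0.19 (95% interval -0.91 to 0.54, limma adjusted p = 1.0), and its groups overlapped. Kif23, a motor of the central spindle at cytokinesis, departed most from the common pattern, with 22.2, 25.6 and 25.3 CPM in cKO, against 29.2, 22.1 and 21.1 CPM in WT. Its values in cKO libraries 2 and 3 were nearly equal. The other members of this role (Kif20a, Nusap1, Tacc3, Hmmr and Gtse1) had folds of 1.69 to 2.40 between their highest and lowest library.

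Of the further proliferation genes, Hmgb2, a chromatin protein of dividing cells, had the highest level per kilobase of exon in the whole set (63.7 CPM). It was at 179.6, 219 and 169.9 CPM in cKO, against 234, 181 and 164 CPM in WT. Stmn1, which destabilises microtubules, was at 60.0, 94.4 and 60.7 CPM in cKO, against 86.8, 61.3 and 58.2 CPM in WT. Stmn1 was 1 of the 4 members whose highest value fell in cKO library 2.

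Other genes of the pathway, taken from textbook lists, were read beside the members. The 53 listed of 54 further replication genes had a median log2 fold change of -0.0059 (25 above 0, 28 below). For the 63 listed of 76 further mitosis genes it was -0.044 (15 above 0, 48 below). Limma gave 0 adjusted calls and 0 at an unadjusted p under 0.05 in either list, beside 0.0% and 1.17% of all genes tested. Cep55, an abscission factor, had the smallest p of the mitosis genes, at 4.39, 4.85 and 4.57 CPM in cKO, against 5.74, 5.14 and 5.59 CPM in WT. Its groups did not overlap (exact permutation p = 0.1, limma unadjusted p = 0.0814), as in no other gene of the 63. Of all genes tested, 1.77% did not overlap and were lower in cKO. Ndc80, an outer kinetochore protein, was at 13.6, 19.1 and 15.5 CPM in cKO, against 19.7, 16.1 and 16.3 CPM in WT. For replication, Gins3 was at 10.05, 12.2 and 11.4 CPM in cKO, against 10.9, 10.3 and 9.51 CPM in WT, and Slbp, which binds histone mRNA, at 103, 111 and 104 CPM in cKO, against 114, 104 and 113 CPM in WT. In 44 of the 53 replication genes (83.0%) and 59 of the 63 mitosis genes (93.7%) cKO library 2 and WT library 1 were the highest libraries, beside 25.4% of all genes tested.

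Replication-dependent histone genes, transcribed in S phase, had the same pair of high libraries. Of 58 listed, 57 were tested, and 52 of them (91.2%) were highest in cKO library 2 and WT library 1, beside 25.4% of all genes tested. The median log2 fold change of cKO over WT was -0.049. Limma called 0 of the 57, adjusted or at an unadjusted p under 0.05, beside 0.0% and 1.17% of all genes tested. They summed to 2593, 3912 and 2631 CPM in cKO libraries 1, 2 and 3, against 4339, 2747 and 2455 CPM in WT libraries 1, 2 and 3. Genes of smallest p were Hist3h2a, at 7.73, 6.08 and 8.14 CPM in cKO, against 5.74, 5.32 and 6.54 CPM in WT, and Hist1h4m, at 21.8, 18.2 and 21.4 CPM in cKO, against 19.7, 12.0 and 20.3 CPM in WT. Histone genes within a family are near-identical, so reads can be split between copies and single histone values are uncertain.

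Upstream regulators were mixed. Of 27 listed genes of cell cycle entry, 17 (63.0%) had the pair of high libraries, beside 25.4% of all genes tested. Among the 17 were the D-type cyclin partners Cdk4 and Cdk6 and the mitotic regulator Mybl2. Mybl2 was at 10.1, 20.1 and 10.7 CPM in cKO, against 22.1, 11.5 and 11.4 CPM in WT. Ccnd2 and Ccnd3, the D-type cyclins with high levels here, did not have that pair: Ccnd2 was at 809, 776 and 745 CPM in cKO, against 711, 838 and 862 CPM in WT. The 2 genes of smallest p were Cdc25b, a phosphatase that activates CDKs, at 93.0, 84.3 and 94.1 CPM in cKO, against 78.0, 85.7 and 85.9 CPM in WT, and Ccnd1, at 10.4, 9.76 and 18.4 CPM in cKO, against 7.91, 6.96 and 11.8 CPM in WT. None of the 27 passed limma, adjusted or at an unadjusted p under 0.05, beside 0.0% and 1.17% of all genes tested. The groups did not overlap in 1 of the 27, lower in cKO, beside 1.77% of all genes tested.

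Inhibitors of the cycle did not share the pattern. Of 19 listed, 4 (21.1%) had cKO library 2 and WT library 1 as their highest pair and 5 (26.3%) had them as their lowest, beside 25.4% and 19.8% of all genes tested. Cdkn1a, which encodes the p53-induced CDK inhibitor p21, was at 10.1, 9.48 and 10.4 CPM in cKO, against 5.16, 6.51 and 7.57 CPM in WT, a log2 fold change of 0.61. Its groups did not overlap (exact permutation p = 0.1), and it passed limma without adjustment (p = 0.00498) and not over all genes (adjusted p = 1.0). It was the only gene of the 19 with an unadjusted p under 0.05, a threshold that 1.17% of all genes tested passed. Cdkn2c, which encodes the CDK4 and CDK6 inhibitor p18, was next at 15.2, 18.9 and 14.6 CPM in cKO, against 18.5, 19.6 and 16.0 CPM in WT. Cdkn1b, which encodes p27, was at 189.5, 173 and 187 CPM in cKO, against 181, 187 and 174 CPM in WT. Cdkn1b, Ccnd2 and Mybl2 were chosen after their values were seen.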

How the data were processed

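Splenic NK cell RNA was prepared with the RNeasy and KAPA Hyper Prep kits and sequenced as 50 bp single reads on a HiSeq2500, per the labels' protocols. The submitters' processing notes name HISAT2, HTSeq, DESeq2 and mm10. The deposited table is called RPKM, but the authors' values are CPM: each column sums to 1000000 and all values (100.0%) give whole reads, with a tolerance of 0.01 reads, when divided by the worth of 1 read. The test had been planned for normalized values and was kept. The sources used here give neither the authors' gene selection nor their use of strand, so overlapping genes cannot be told apart. The exon lengths in the deposited table (unit other, bases) gave levels per kilobase.

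Damaged symbols, such as those turned into dates, were replaced through identifiers (16 symbols; 11709 identifiers matched GENCODE M21, the source of coordinates). Log2(CPM + 0.5) was tested with limma 3.58.1 (R 4.3.3, intensity trend, genotype as the term, 6 libraries, Benjamini-Hochberg over 11343 genes). Fold changes on this scale understate those of low genes. Recovered reads were tested with edgeR 4.0.16 (quasi-likelihood) and DESeq2 1.42.0. Single genes had a two-sided exact permutation test. Nothing in the labels says that libraries of a group are separate mice, so p-values measure only how far these samples spread, and that may be technical. Members and lists were chosen with earlier results of these data known. Values per library are given for the 3 members of smallest p and the 2 of highest level per kilobase in each role, and the 2 genes of smallest p in each other list; other genes are given as ranges or were chosen after their values were seen (Cdc6, Kif23, Car1, Klf1, Hbb-bs, Mpo). Alternatives changed the pseudocount, filter, scaling, test, library weights, replicate block and libraries.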

Additional observations from a re-analysis of the deposited data

How the results depend on the processing

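No member was called under any of the alternatives run, and the number at an unadjusted p under 0.05 stayed at 0, except with weights for each library, where it was 2 (Cenpf and Nusap1, both lower in cKO, limma adjusted p = 0.19 and 0.267). Those weights left 2083 genes of all tested at an unadjusted p under 0.05, and their estimation stopped before convergence. The median log2 fold change of the members stayed between -0.086 and -0.036 under other pseudocounts, filters, scalings and tests. The filters could not move it, since every member passed each of them. With 1 library left out it ran from -0.28 to 0.20 over all members, from -0.22 to 0.20 over S phase members and from -0.32 to 0.20 over mitotic members, and the S phase minus mitotic difference from -0.0021 to 0.10 (0.062 with all libraries). The log2 fold change turned in sign with weights for each library in Mcm6 (0.0078) and Stmn1 (-0.045), without the genes Gm26917 and Gm42418 in Mcm6 (5.2e-05), and without WT library 1 and cKO library 2 together in Ccnb2 (0.013), Ccne1 (0.0024), Hmgb2 (0.017) and Mcm6 (0.0029). Leaving out each library in turn gave log2 fold changes of Birc5 -0.31 to 0.20, Bub1b -0.37 to 0.18, Ccna2 -0.42 to 0.26, Ccnb1 -0.52 to 0.31, Ccnb2 -0.33 to 0.30, Ccne1 -0.33 to 0.25, Cdc20 -0.35 to 0.20, Cdt1 -0.070 to 0.18, Cenpe -0.29 to 0.14, Cenpf -0.32 to 0.018, Dut -0.36 to 0.27, E2f1 -0.064 to 0.30, Gins2 -0.35 to 0.18, Hmgb2 -0.13 to 0.13, Kif11 -0.37 to 0.082, Mcm4 -0.17 to 0.064, Mcm6 -0.14 to 0.13, Mki67 -0.24 to 0.14, Pcna -0.17 to 0.11, Plk1 -0.35 to 0.23, Rrm2 -0.39 to 0.16, Stmn1 -0.16 to 0.23, Tk1 -0.12 to 0.41, Top2a -0.32 to 0.081, Tpx2 -0.43 to 0.11 and Uhrf1 -0.30 to 0.27. The cause of these changes was not tested beyond the library values given above. The labels do not say whether replicate numbers pair the libraries. Deviations from the group means correlated across genes at -0.17, -0.51 and 0.48 for numbers 1, 2 and 3. Only library 3 of each genotype correlated best with its own number. The deviations sum to 0 over the 3 libraries of a group, so these correlations constrain each other and cannot decide the pairing. Across numbers, the correlation was 0.59 between cKO library 2 and WT library 1 and 0.65 between cKO library 1 and WT library 2, the highest for each of these libraries. The labels give no litter, sort day or batch, and whether libraries of different genotypes share one was not tested. With a replicate block 0 members were called. Each genotype has every replicate number, so the block cannot move the fold changes. Their median was therefore again -0.042, which says nothing about pairing. Every member had 124 or more reads in every library, and the median within-group SD of a member was 0.42 on the log2 scale. The part of counting error in that spread was not tested.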

Other observations

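Genes of blood progenitors, a list chosen after the erythroid markers had been seen and given without a test, were read by library as well. Of 20 genes 17 were listed, and in 10 of the 17 cKO library 2 and WT library 1 were the highest. Over all genes tested, that pair was the highest in 25.4%. Gata1, Tfrc and Kit are examples from these 10, picked by no rule fixed beforehand. Gata1, the erythroid and megakaryocyte transcription factor, was at 18.4, 39.0 and 16.2 CPM in cKO libraries 1, 2 and 3, against 37.6, 14.6 and 18.1 CPM in WT libraries 1, 2 and 3. Tfrc, the transferrin receptor of erythroid and of other dividing cells, was at 47.9, 87.8 and 47.3 CPM in cKO, against 110.2, 42.4 and 44.2 CPM in WT. Kit, the stem cell factor receptor, was at 90.5, 158.6 and 98.3 CPM in cKO, against 155.9, 81.1 and 99.2 CPM in WT.

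The listed genes outside those 10 had other highest pairs, and 2 of them are given as examples chosen after their values were seen. Itga2b, the megakaryocyte integrin CD41, was at 78.6, 99.4 and 115.3 CPM in cKO, against 82.8, 75.0 and 157.7 CPM in WT. Flt3, a receptor of lymphoid and dendritic cell precursors, was at 13.5, 16.9 and 27.9 CPM in cKO, against 13.1, 9.87 and 25.3 CPM in WT. In both, library 3 was the highest of each genotype.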
